A study of Taeniopygia guttata with 169 samples.

Results

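The genes described here are the 60 genes of zebra finch bone marrow that stood highest in birds fed methylmercury (MeHg) relative to control birds at every age sampled. They were chosen from 17292 genes by their values alone. With each value taken as log2(normalised read count + 1), a gene had to have a mean of at least 3 over all libraries. Its control means at the 4 ages had to lie within a range under 1, and its mean in males and in females had to differ by less than 0.25. MeHg minus control had to be above 0 in both cohorts. These conditions were met by 2355 genes, of which 867 were higher in MeHg birds at all 4 ages. The 2355 were ranked by the lowest of their 4 differences between MeHg and control (days 6, 18, 35 and 90), and the first 60 are the members. The MeHg difference is therefore what chose them, and its size is given below as a description.

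RNA of whole bone marrow was sequenced from zebra finches (Taeniopygia guttata) that received either a control diet (labelled C) or food with 1.2 ppm MeHg (labelled Hg) and were euthanised at day 6, 18, 35 or 90. The libraries analysed comprised 17, 21, 19 and 21 controls and 15, 25, 21 and 22 MeHg birds at the 4 ages, with 74 females and 87 males spread over 2 labelled cohorts and 11 plates. The study's design text says that the birds were bred from stock of varied past exposure. Per-bird exposure history was not used here, and the labels do not say what the code in each title (such as C9 or Hg17) stands for. Assigned reads ran from 4572638 to 14968673 per library, with a median of 7637898, and the median RIN (a score of RNA integrity) was 8.6 in 62 controls and 8.7 in 65 MeHg birds with a label. The series asks how this dose acts on the blood-forming system.

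Bone marrow makes red cells, thrombocytes, granulocytes and other blood cells from shared stem and progenitor cells, and in birds mature red cells keep their nucleus. Methylmercury is an organic form of mercury that is taken up from food and binds tightly to thiol and selenol groups of proteins and of glutathione. In bulk marrow, more cells of a type and more RNA per cell cannot be told apart. The files give the genes as Ensembl identifiers that no table used here pairs with a symbol, so each member is described by its values, and neither its function nor the marrow's marker genes could be looked up.

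All 60 members had enough counts to enter the tests, which took the 14042 genes that reached 10 in 15 or more libraries. The mean of a member's 4 age differences ran from 0.29 to 1.73 on the log2 scale with a median of 0.51, which is a 1.42-fold higher level in MeHg birds. This scale understates the change of genes with low counts. For 2 members it was over 1, and for 30 it was over 0.5. The lowest of the 4 differences ran from 0.23 to 1.16. At the end of the ranking ENSTGUG00000011342 was the last inside with a lowest difference of 0.23, and ENSTGUG00000019409, ENSTGUG00000008641 and ENSTGUG00000019726, just outside, also had 0.23. The limit of 60 thus cuts a continuous ranking.

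The members were spread over the 4 ages in where their difference was largest. This was day 6 for 17 of them, day 18 for 11, day 35 for 14 and day 90 for 18. The smallest difference fell most often at day 18, in 27 members. The median difference over the 60 was 0.51, 0.43, 0.51 and 0.45 from the youngest to the oldest birds, while over all 14042 genes tested it was between -0.01 and 0.01 at each age.

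The first member, ENSTGUG00000004149, had a lowest difference of 1.16 and a mean of 1.73. Its lowest, median and highest normalised read counts in day 6 controls were 0, 5.42 and 25.4, in those of day 18 they were 2.30, 8.37 and 250.8, at day 35 they reached 0, 7.81 and 86.3, and day 90 gave 0, 7.59 and 111.6. MeHg birds of day 6 had 1.66, 14.1 and 366.4, those of day 18 had 1.29, 16.8 and 239.6, those of day 35 had 2.50, 59.2 and 158.9, and those of day 90 had 0, 12.8 and 158.9. The groups overlapped fully at the low end and parted at the high end. No bird lay between 30.4 and 53.1, a gap picked after the values were seen, which left 42 birds above it. They were 4 of 78 controls (5.13%) and 38 of 83 MeHg birds (45.8%). High MeHg birds occurred at each age, and from day 6 to day 90 they were 7 of 15, 11 of 25, 11 of 21 and 9 of 22. The high birds were unevenly spread over the cohorts, with 24 of 35 MeHg birds of cohort 1 and 14 of 48 of cohort 2, against 2 of 38 and 2 of 40 controls. Of the 12 MeHg title codes with 2 or more libraries, 10 held birds on both sides of the gap, and Hg18 and Hg19 held low birds only.

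The second, ENSTGUG00000020696, also parted from the controls at the high end. Its lowest, median and highest counts were 25.9, 64.1 and 83.5 in day 6 controls, then 30.4, 70.4 and 114.3 (day 18), 41.03, 75.2 and 130.6 (day 35), and 26.8, 76.7 and 155.6 (day 90). In MeHg birds they were 48.1, 140.99 and 539.6, then 30.8, 115.7 and 584.9, then 51.7, 158.8 and 388.3, and finally 50.1, 206.8 and 438.9 at the same days. At each age the MeHg median lay above the highest control of that age, and the lowest MeHg birds lay among the controls. A count over 160, a level picked after the values were seen, was reached by 0 of 78 controls and 39 of 83 MeHg birds (46.99%). By age these were 7 of 15, 8 of 25, 10 of 21 and 14 of 22 MeHg birds.

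ENSTGUG00000003079, the sixth member, was higher at the low, middle and high percentiles of birds examined. Its lowest, median and highest counts were 9.16, 21.3 and 48.2 in day 6 controls, then 13.9, 33.7 and 65.7 (day 18), 18.5, 32.8 and 100.7 (day 35), and 15.4, 31.9 and 105.6 (day 90). MeHg birds had 13.2, 53.7 and 97.01 (day 6), 13.3, 56.8 and 118.4 (day 18), 46.9, 70.3 and 119.7 (day 35), and 29.9, 65.2 and 112.2 (day 90). Against the control median of the same age, 77 of 83 MeHg birds were higher, and 4 of 78 controls exceeded the MeHg median of their age. The groups still overlapped at each age. Its differences at the low, middle and high birds were alike: 0.89 at the 10th percentile, 1.03 at the median and 0.93 at the 90th, each averaged over the 4 ages.

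**Figure D1:**
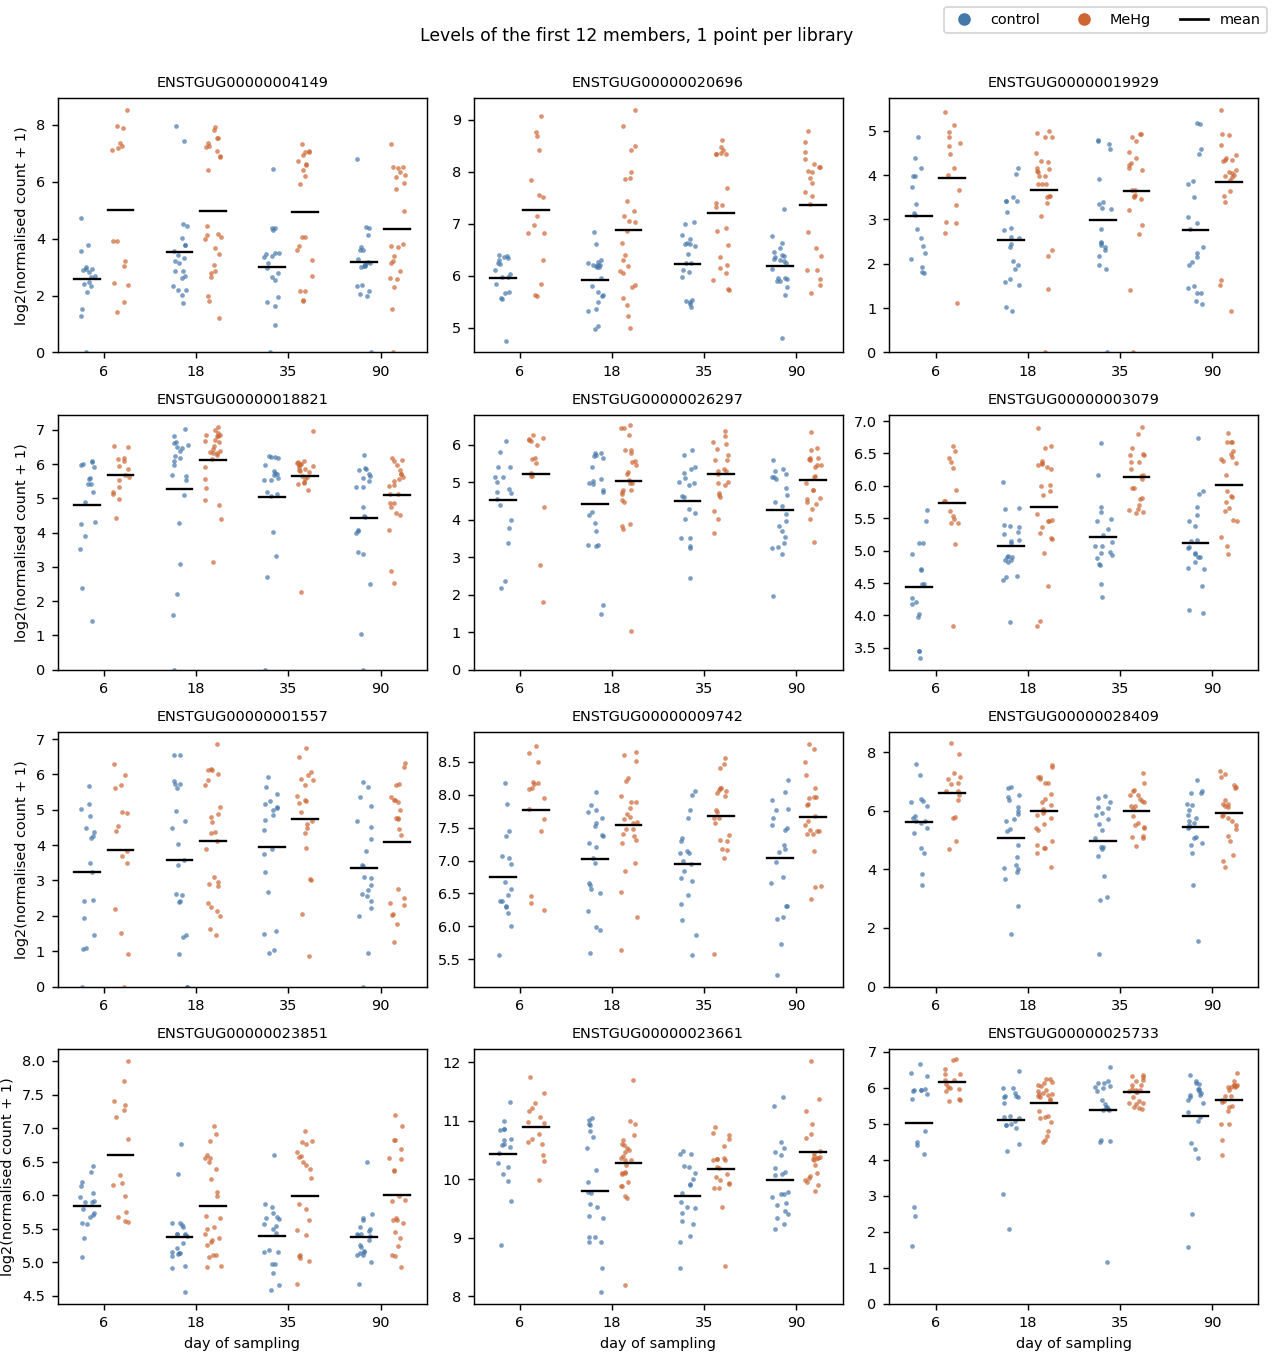
Levels of the first 12 members in each library, as log2(normalised count + 1) against the day of sampling, with controls in blue, MeHg birds in orange and the group mean as a black line. The orange mean lies above the blue one at each of the 4 ages in every panel, as the choice of members requires, and the points of the groups overlap at every age.

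The other first 12 differed in shape. ENSTGUG00000019929 had control medians of 7.59, 5.03, 5.85 and 4.20 and MeHg medians of 16.8, 14.9, 11.7 and 15.6 at days 6, 18, 35 and 90, low counts at which some birds of both treatments were at or near 0. ENSTGUG00000026297 had control medians between 19.7 and 26.6 and MeHg medians between 32.1 and 48.5. ENSTGUG00000009742 had control medians from 94.4 to 146.7 and MeHg medians from 190.8 to 271.8. These 3 had MeHg medians above the control medians at each age, with ranges that overlapped.

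ENSTGUG00000023661 had the highest mean count of the members (not per length), with control medians of 1530, 869.4, 863.7 and 874.5 and MeHg medians of 1999, 1277, 1180 and 1315. Its mean was highest at day 6 and lowest at day 35 in both treatments, and the mean of its 4 differences was 0.46. ENSTGUG00000028409 had control medians from 39.2 to 49.6 and MeHg medians from 62.96 to 102.5. ENSTGUG00000001557 had the widest spread of the members among controls (SD 1.75 within ages, log2 scale), with counts from 0 to 92.6 in controls of day 18 and from 1.73 to 115.04 in MeHg birds of day 18. With medians of 10.9 and 19.4 there, its groups overlapped almost completely, and its mean of 4 differences was 0.67.

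The shape of the difference was compared over the members at fixed percentiles of birds. The percentiles come from groups of 15 to 25 birds. No sampling error and no share over all genes tested is given for the counts that follow. The difference at the 90th percentile exceeded that at the 10th by over 0.5 in 10 members. The reverse held in 8, and in 42 both were within 0.5 of each other. In the first kind the MeHg birds lay farther above the controls at the high end than at the low end. ENSTGUG00000004149 differed by 0.40, 1.40 and 3.02 at the 10th, 50th and 90th percentiles, and ENSTGUG00000023851 by 0.14, 0.49 and 1.15. In 2 of the 10 the difference at the 10th percentile was below 0. ENSTGUG00000007307 differed by -0.37 at the 10th and 0.75 at the 90th percentile, and ENSTGUG00000011537 by -0.10 and 0.64. At the 25th percentile they differed by 0.004 and 0.30. Whether the values below 0 exceed sampling error was not tested.

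In the second kind low birds were fewer among the MeHg birds than among the controls. ENSTGUG00000018821 differed by 2.11, 0.35 and 0.17 at the same percentiles, ENSTGUG00000025733 by 1.36, 0.31 and 0.15, and ENSTGUG00000024464 by 1.13, 0.40 and -0.01. A count of at most 200 of ENSTGUG00000024464 was seen in 33 of 78 controls and 1 of 83 MeHg birds. For ENSTGUG00000025733 a count of at most 25 was seen in 19 of 78 controls and 5 of 83 MeHg birds, and for ENSTGUG00000018821 a count of at most 10 in 14 and 4. These levels were picked after the values were seen. All 60 members had a difference of medians above 0, and 57 had differences above 0 at all 5 percentiles examined. The choice used the means of these same birds, which favours such values, and no share over all genes tested is given. At no age did any member separate the treatments without overlap, for which no count over all genes tested is given either.

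**Figure D2:**
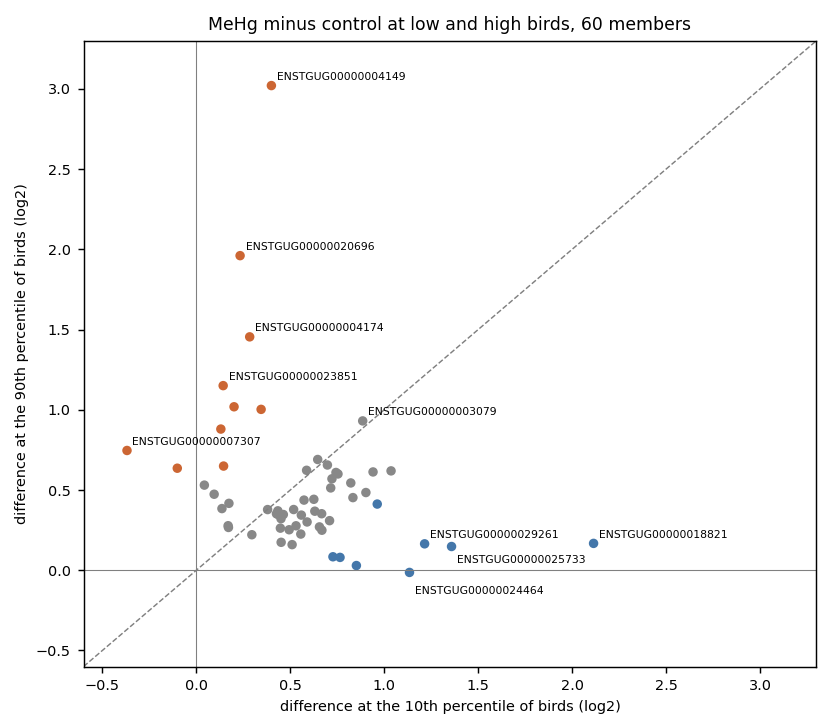
MeHg minus control (log2) at the 90th percentile of birds against the 10th percentile, 1 point per member, with the dashed line of equal differences. Orange points (10 members) lie over 0.5 above the line, blue points (8 members) over 0.5 below it, and grey points (42 members) within 0.5 of it, with ENSTGUG00000003079 near the line at 0.89 and 0.93.

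As a group the members were no more variable in MeHg birds. The median SD of a member within age groups was 0.785 on the log2 scale in controls and 0.751 in MeHg birds, and 22 of 60 (36.7%) were wider in MeHg birds, beside 42.5% of all genes tested. The members did stand among the variable genes of the marrow, which the choice favours. It ranked differences that were not divided by the spread between birds. The members' median residual SD, after treatment, age, sex, cohort and plate, was 0.78, beside 0.42 over all genes tested. Their median level was 5.72, beside 7.41 over all genes tested (log2 of counts, not per length), and lower counts carry more counting error, whose part was not tested.

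The difference was looked at within parts of the libraries. These are the same birds the choice used, so the counts describe evenness only. MeHg minus control was above 0 for 60 of 60 members in males (median 0.50) and for 60 of 60 in females (median 0.47). Its median was 0.55 in cohort 1 and 0.48 in cohort 2. On the 6 plates with at least 5 birds of each treatment, the members above 0 numbered 52 on plate B, 52 on F, 60 on G, 57 on I, 59 on J and 51 on K. Of the 60, 33 were above 0 on all 6 of these plates, 25 on 5 and 2 on 4.

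Single members could rest mainly on 1 cohort although the group did not. Here the difference was taken over all birds of a cohort, as in the choice, which differs slightly from the measure behind the cohort medians above. It was over 3 times larger in cohort 1 for 9 members and over 3 times larger in cohort 2 for 7. For 21 the cohorts were within 1.5 times of each other. ENSTGUG00000004280 differed by 0.03 in cohort 1 and 1.65 in cohort 2. ENSTGUG00000004149 differed by 2.95 and 0.74, and ENSTGUG00000025733 by 1.10 and 0.11. ENSTGUG00000020696 was even, with 1.01 and 1.11. Whether the MeHg difference of a member differed between cohorts was not tested, since both cohort differences entered the choice.

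**Figure D3:**
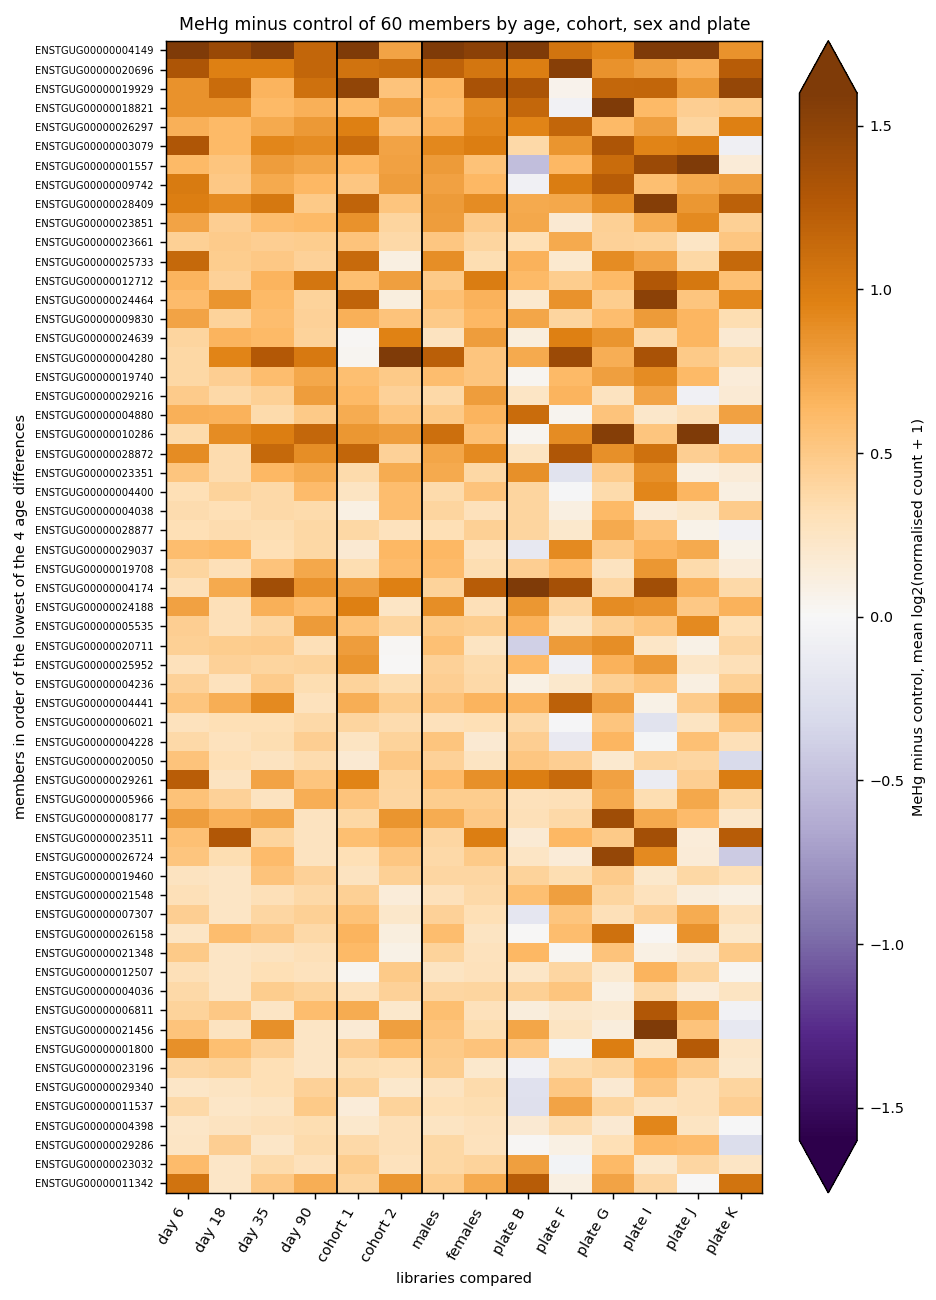
MeHg minus control (mean log2(normalised count + 1)) of the 60 members (rows, in rank order) at the 4 ages, in the 2 cohorts, in males and females and on 6 plates (columns), with orange for higher in MeHg birds and purple for lower. The age and cohort columns hold no purple, as the choice favoured values above 0 at each age and in each cohort. The plate columns hold some, most of it on plates B, F and K.

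A linear model over all 14042 genes (limma on log2(value + 1), 1 mean for each treatment at each age, plus terms for sex, cohort and plate) was fitted for reference. In this fit 49 of the 60 members had an adjusted p under 0.05 (Benjamini-Hochberg) for the mean MeHg difference, all of them higher, where 7.48% of all genes passed in either direction and 3.78% as higher with MeHg. The choice used this same contrast, so the count supports nothing. With the title code as a random effect the count was 39, where 3.06% of all genes passed.

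Tests of contrasts that the choice did not use were then made on the members, in the birds whose means the choice had used. Whether the MeHg difference differed between the sexes was tested first. In limma 0 of 60 members had an adjusted p under 0.05, where 0% of all genes passed, and edgeR on recovered reads called 0 members and 0 genes as well. At an unadjusted p under 0.05 there were 4 members and 473 of all genes tested (3.37%), with 489 genes in edgeR. The member with the smallest p was ENSTGUG00000024639, whose difference was larger in females by 0.60 ± 0.20 (SE, log2; limma p = 0.00382, adjusted p = 1.00).

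Cohort was tested among the 78 controls. The choice used these birds too, for the mean level, the range over ages, the sexes and the MeHg difference in each cohort, but not the difference between control cohorts. Of the 60 members, 4 passed at an adjusted p under 0.05 in limma, where 4.73% of all genes passed, a share close to that of the members. At an unadjusted p under 0.05 there were 17 members, beside 20.9% of all genes. ENSTGUG00000024464, ENSTGUG00000025733 and ENSTGUG00000026158 were higher in controls of cohort 2, and ENSTGUG00000004038 was lower.

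ENSTGUG00000024464 had a lowest, median and highest count of 24.6, 167.5 and 476.7 in 38 controls of cohort 1 and of 132.6, 309.3 and 636.1 in 40 controls of cohort 2. Its difference was 1.05 ± 0.19 (SE, log2; limma adjusted p = 0.000386), and 37 of 40 controls of cohort 2 lay above the median of cohort 1. MeHg birds had medians of 337.1 in cohort 1 and 331.5 in cohort 2, near the controls of cohort 2. The low control birds of this gene were thus mostly of cohort 1.

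ENSTGUG00000025733 showed the same order. Its controls had 1.22, 30.3 and 93.9 in cohort 1 and 17.9, 53.8 and 100.2 in cohort 2, a difference of 1.04 ± 0.28 (limma adjusted p = 0.0190), with 37 of 40 controls of cohort 2 above the median of cohort 1. Its MeHg medians were 56.3 and 58.96. ENSTGUG00000026158 had control medians of 6.95 and 11.1 in cohorts 1 and 2 and differed by 0.92 ± 0.22 (limma adjusted p = 0.00802), with 33 of 40 above. ENSTGUG00000004038 went the other way, with control medians of 323.5 and 246.9, a difference of -0.58 ± 0.14 (limma adjusted p = 0.00990) and 30 of 40 controls of cohort 2 below the median of cohort 1. For all 4 the control ranges of the cohorts overlapped. With RNA extraction batch in place of plate, ENSTGUG00000004038 (limma adjusted p = 0.0833) and ENSTGUG00000025733 (0.0637) no longer passed. ENSTGUG00000025733 did not pass in edgeR either (adjusted p = 0.0912), nor ENSTGUG00000026158 with title code as a random effect (0.0608). ENSTGUG00000024464 passed in every setting tried. For each of them the MeHg difference was larger in the cohort whose controls were lower, and that difference is computed from the same controls.

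Title codes belong to 1 treatment each, so birds of 1 code may share a source that the labels do not state, and code and treatment cannot be told apart bird by bird. Over the 15 control and 12 MeHg codes with 2 or more libraries, a member had a median of 10 and from 7 to 12 MeHg codes whose mean lay above the median of the control codes. All 12 lay above it for 13 members. These are the birds the choice used, so the counts of codes describe evenness only. No share over all genes is given beside them, and for some members they differ from counts on the plain code means. For ENSTGUG00000020696 every MeHg code but Hg18 (6.23) and Hg19 (6.55, log2 scale) had a mean above the highest control code, C9 (6.61). ENSTGUG00000003079 had 12 of 15 control codes below every MeHg code. Its residuals in birds of the same code and cohort had a correlation of 0.045. The median of this correlation was 0.187 over members and 0.096 over all genes tested.

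Levels were tested for differences among title codes within each treatment. The choice used the means of these birds, so a high MeHg code or a low control code could help a gene become a member. The members' shares are therefore not independent of the choice. Among controls (75 libraries, 15 codes) 2 of 60 members passed in limma, where 1.55% of all genes passed. They were ENSTGUG00000012712 (F = 3.73, limma adjusted p = 0.0326) and ENSTGUG00000020711 (F = 3.42, limma adjusted p = 0.0456), whose code means ran from 3.21 (C13) to 6.21 (C2) on the log2 scale. With RNA extraction batch in place of plate neither passed (limma adjusted p = 0.0822 and 0.225), and ENSTGUG00000020711 did not pass with a pseudocount of 0.5 (0.0578) or in edgeR (0.143). At an unadjusted p under 0.05 there were 22 members, beside 19.8% of all genes.

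Among MeHg birds (79 libraries, 12 codes) 6 of 60 passed, where 3.24% of all genes passed, and 25 were at an unadjusted p under 0.05 beside 21.02% of all genes. The members that passed were ENSTGUG00000012712, ENSTGUG00000001800, ENSTGUG00000021348, ENSTGUG00000023196, ENSTGUG00000023661 and ENSTGUG00000012507. ENSTGUG00000012712 had the smallest p of all genes tested (F = 14.6, limma adjusted p = 8.75e-09). Among the members ENSTGUG00000001800 was second (F = 7.02, adjusted p = 0.000349), with code means from 5.65 (Hg19) to 7.09 (Hg3) on the log2 scale. ENSTGUG00000021348 ranged from 5.18 (Hg15) to 7.23 (Hg5), with an adjusted p of 0.00335 in limma. The other 3 had adjusted p-values of 0.00777 (ENSTGUG00000023196), 0.0122 (ENSTGUG00000023661) and 0.0160 (ENSTGUG00000012507). With RNA extraction batch in place of plate, ENSTGUG00000023196 (limma adjusted p = 0.0600) and ENSTGUG00000012507 (0.229) no longer passed, and without plate ENSTGUG00000012507 did not (0.131). The other 4 of the 6 passed in every setting tried.

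For ENSTGUG00000012712 a single MeHg code stood apart. Its counts had medians from 111.8 to 145.3 in the control groups and from 178.6 to 208.7 in the MeHg groups. A count over 900, a level picked after the values were seen, was found in 4 MeHg birds. They were 1 at day 18, 1 at day 35 and 2 at day 90, and the highest count was 3617. All 4 were the birds of code Hg6, and no other MeHg bird reached that level. A single control, of code C20, had 978.4. Without code Hg6 the mean MeHg difference of this gene was 0.57 in place of 0.70.

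**Figure D4:**
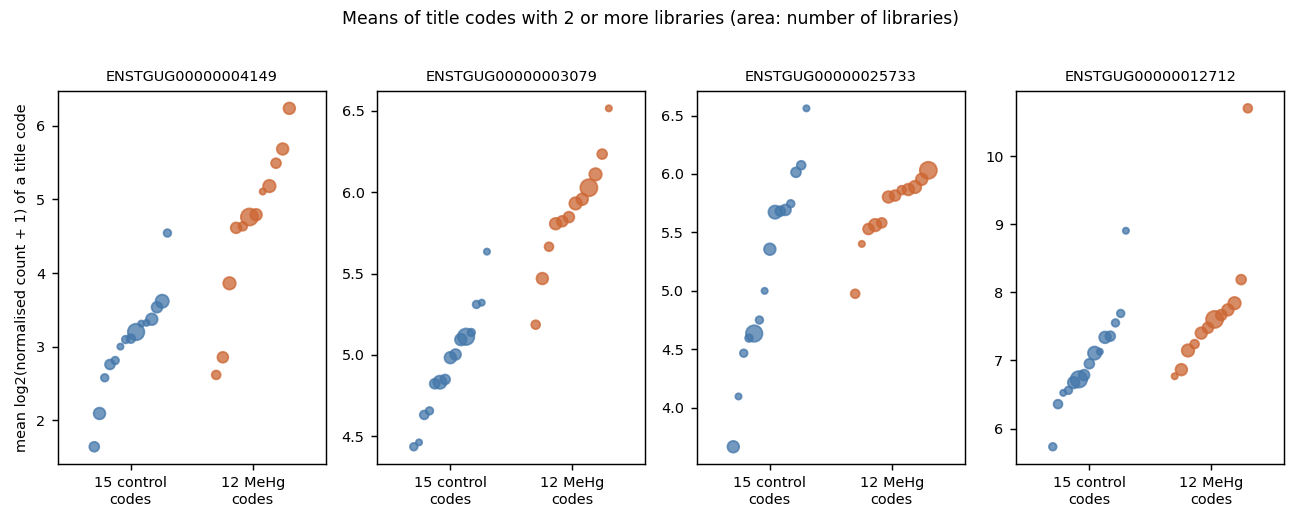
Mean log2(normalised count + 1) of each title code with 2 or more libraries for 4 members, with 15 control codes in blue and 12 MeHg codes in orange, sorted by level within a treatment and drawn with an area in proportion to the number of libraries. ENSTGUG00000012712 has a single MeHg code, Hg6, at 10.70, apart from the rest, ENSTGUG00000025733 has control codes that reach down to 3.66 where the lowest MeHg code is at 4.97, and ENSTGUG00000003079 has 12 control codes below all MeHg codes.

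RNA integrity was tested in the libraries with a RIN, 62 of controls and 65 of MeHg birds. Of the 60 members 1 passed in limma, where 12.8% of all genes passed, and 7 were at an unadjusted p under 0.05 beside 27.3% of all genes. Members had a wider residual spread (median SD 0.78 beside 0.42) and lower counts than all genes tested. A wider spread lowers the number of calls at a given slope, and its part here was not tested. The member that passed was ENSTGUG00000006811, which fell by 0.58 ± 0.16 (SE, log2) per unit of RIN (limma adjusted p = 0.00820). Its median count was 67.5 in the 71 libraries with a RIN of at most 8.7 and 53.95 in the 56 above, and the ranges overlapped.

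**Figure D5:**
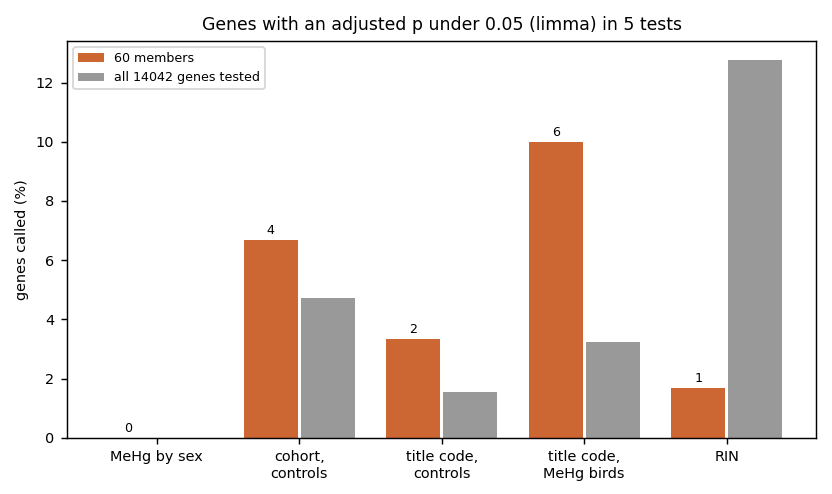
Percentage of the 60 members (orange, with the number called above the bar) and of all 14042 genes tested (grey) called in 5 tests. Calls had an adjusted p under 0.05 in limma. The choice of members did not use these contrasts, but it used levels of the same birds. The members' counts were 0, 4, 2, 6 and 1, and for RIN their share lies below the 12.8% of all genes. Their residual spread was wider than that of all genes tested, and its part in these shares was not tested.

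The members moved little with each other from bird to bird. After the model was fitted, the median absolute correlation of 2 members across all libraries was 0.083 over 1770 pairs, beside 0.127 over pairs of all genes tested, and 8 pairs of members (0.452%) exceeded 0.5 in size, beside 2.35% of all pairs. The points share libraries and plates, and the correlations are descriptions. Members had lower counts than all genes tested (median log2 level 5.72 beside 7.41). The part of counting error in the lower correlations was not tested. The closest pair was ENSTGUG00000004149 with ENSTGUG00000023851 (r = 0.77), both with birds that stood high, and their rows in the file were 7 apart.

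ENSTGUG00000004036 went with ENSTGUG00000029216 (0.73) and, 1 row away, with ENSTGUG00000019460 (0.72). ENSTGUG00000023196 and ENSTGUG00000029037 (0.66) were 3 rows apart, and ENSTGUG00000029340 and ENSTGUG00000029216 (0.57) were 2 rows apart. Of the 8 pairs of members at most 10 rows apart, 4 had a correlation over 0.5, and of the 1762 other pairs 4 had. Among all genes tested, 3723 of 114434 pairs at most 10 rows apart (3.25%) exceeded 0.5. The order of rows in the file is the authors' own, and whether rows near each other are neighbours in the genome was not tested. Reads shared between near-identical or overlapping genes could not be recognised without annotation, which leaves these pairs uncertain.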

How the data were processed

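Marrow RNA was isolated with RNAzol RT and its messenger RNA purified on oligo(dT) beads before NEBNext library preparation, per the labels' protocols. Software listed in the submitters' processing notes comprises featureCounts, Subread, DESeq2 1.30.1 and R 4.0.2. Build, annotation and strandedness of the counting: not given in the sources used here. The authors deposited a normalised signal for each gene, in which read counts were scaled by 1 factor per library. In every library 100% of values were whole multiples of the smallest value above 0 (relative tolerance 1e-06), which gives back the reads.

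Of 169 labelled libraries, 8 were not analysed here. Only libraries with a known sex and with values in the deposited table were taken. Separate birds are assumed, since the labels do not state it, and p-values otherwise measure technical spread. Pairs of libraries within a group all differed by more than sampling noise (lowest chi-square per gene 10.4). The 3 libraries farthest from the mean of their own treatment and age group were of females (MeHg day 90 replicate 7, control day 90 replicates 15 and 16). Distance was taken on the leading principal components.

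The written design assumed counts and edgeR. Because the deposited values are normalised, limma 3.58.1 (R 4.3.3, trend and robust variances) on log2(value + 1) was the main test. An alternative was edgeR 4.0.16 on recovered reads. A gene was called at a Benjamini-Hochberg adjusted p under 0.05. The members, lists and tests were chosen with earlier results of these data known. The gene and cell marker lists of the design could not be run, because 0 identifiers matched the reference table. Values by group are given in full for ENSTGUG00000004149, ENSTGUG00000020696 and ENSTGUG00000003079 and in part for the rest of the first 12 by rank. The written design had planned them for all 12. Members called in tests of contrasts the choice did not use are described by counts, by code means or, for some, by p-values only. Other named members were chosen after their values were seen.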

Additional observations from a re-analysis of the deposited data

How the results depend on the processing

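The number of members called moved by more than 1.5 times in few settings. For cohort in controls it was 8 without plate and 2 with RNA extraction batch in place of plate. For title code in controls it was 1 with a pseudocount of 0.5, 4 without plate and 0 with extraction batch (limma, 40 genes in all). For RIN it was 4 in edgeR, 2 with extraction batch and 2 without the 3 farthest libraries. The cause was not tested. Over all genes, calls fell from 1050 to 430 for the mean MeHg difference with title code as a random effect. For cohort in controls they fell from 664 to 207 with extraction batch, 379 without the farthest libraries and 190 with title code. For title code in controls they moved from 218 to 357 without plate and 40 with extraction batch, and in MeHg birds from 3.24% to 1.19% of genes with extraction batch.

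The choice of members depended most on the use of means in the 4 age differences. With medians in these, and means kept in the other conditions, 35 of the 60 were chosen again. With a pseudocount of 0.5 it was 52, with TMM scaling 60 and without the 3 farthest libraries 51. With medians the difference moved by over 1.5 times for 7 members. It fell most, relative to its size, for ENSTGUG00000004036 (0.35 to 0.13) and ENSTGUG00000004038 (0.36 to 0.14). Others were ENSTGUG00000018821 (0.69 to 0.35), ENSTGUG00000025733 (0.61 to 0.31) and ENSTGUG00000007307 (0.37 to 0.68). The first value of each is the model's estimate, with terms for sex, cohort and plate, and the medians are unadjusted. Leaving out each title code in turn kept all 60 above 0, at 0.726 to 1.487 times the full value. No paired analysis was possible because replicate numbers were given in accession order and pair no libraries. Depth limits the members of lowest count, 16 of which had a mean log2 level under 4.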

Other observations

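The members were unevenly placed in the deposited table. Of the 60, 48 (80%) lay below the middle of its rows, where 50.2% of the genes tested and 59.1% of the 2355 genes that met the conditions lay. Of 583 genes tested that were higher in males by over 0.5, 521 lay in 1 stretch of 1100 rows, which held 1 member. The choice required a sex difference under 0.25, which shut such genes out. The share of eligible genes in that stretch is not given, so its 1 member says nothing about placement.

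Identifier numbers from 4000 to 4500 were held by 10 of the 60 members (16.7%), by 68 of the 2355 genes that met the conditions (2.89%) and by 305 of the genes tested (2.17%). They include ENSTGUG00000004149, ENSTGUG00000004280 and ENSTGUG00000004174. This window was chosen after the members were known and was not tested.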
